A study of Homo sapiens with 4 samples.

Results

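LINC00622 and 5 protein-coding genes around it on the short arm of chromosome 1, in band 1p12, were examined in SK-MEL-28 and A375 cells: ZNF697, PHGDH, NOTCH2, WARS2 and TBX15. The members were taken by gene name, under a rule that used no measured value, though earlier results of these data were known. They are 6 genes, looked up in a table that lists 17755. Of the 6, 5 were listed. TBX15, a T-box transcription factor, had no row, so no level is given for it, and its state in these cells was not analysed here. SK-MEL-28 and A375 are established human melanoma cell lines. Each was transfected either with siNC, a control siRNA, or with siLINC00622, an siRNA against LINC00622, for 6 h without serum and then kept for 24 h with serum. Poly(A) RNA was sequenced in 4 libraries, 1 for each line and treatment, so no ratio within a line has a replicate check. Library totals lay between 31269923 and 36384819 counts. The questions were whether the neighbours moved with LINC00622 under the siRNA, and how the locus differed between the lines.

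A long noncoding RNA such as LINC00622 makes no known protein, and such RNAs can act on genes close to them, on distant genes, or by binding proteins. An siRNA works through its guide strand, which pairs with the target RNA in the Argonaute complex, and the first bases of the guide, the seed, can also pair with other transcripts. The neighbours do unrelated work. ZNF697 is a zinc-finger protein, PHGDH catalyses the first step of serine synthesis from a glycolytic intermediate and is known to be gained in part of melanomas, NOTCH2 is a receptor that releases its intracellular part to the nucleus on contact with a ligand, and WARS2 loads tryptophan onto the mitochondrial tRNA.

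LINC00622 (ENSG00000260941) is annotated by GENCODE 29 at chr1:119597702-119599271 of GRCh38 on the minus strand, as 1 transcript of 1570 bases in a single exon. The designed siRNA targets are shown because they define what the treatment was directed at. Both lie in that exon, written in the sense of the transcript, and the capitals mark the 7 bases that pair with positions 2 to 8 of the guide.
siLINC00622_1: ccctaaagaaaGTGAGAAa
siLINC00622_2: ggcaacctctaATTGACTt
The first covers transcript bases 555 to 573 (chr1:119598699-119598717) and the second bases 815 to 833 (chr1:119598439-119598457), so that they start 260 bases apart. The labels do not say which of them, or whether both, was used for sequencing. The 19 bases of each were found in 1 of 206694 GENCODE transcripts, that of LINC00622, and the reverse complement in 0. The stretch from one target to the other, with both targets in capitals, reads as follows.
LINC00622 bases 555 to 833: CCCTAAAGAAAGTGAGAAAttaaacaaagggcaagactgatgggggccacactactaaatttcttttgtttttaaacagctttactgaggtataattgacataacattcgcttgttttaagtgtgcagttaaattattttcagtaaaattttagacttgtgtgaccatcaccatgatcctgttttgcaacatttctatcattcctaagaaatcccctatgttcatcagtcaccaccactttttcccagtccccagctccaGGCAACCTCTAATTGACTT
The pair of qPCR primers used for LINC00622 is placed here because its product spans the first siRNA target.
LINC00622_FP: gatttcagccagtgtctcttgga
LINC00622_RP: ggatcatggtgatggtcacacaa
The product covers bases 504 to 733 of the transcript, 230 bases. The first target therefore lies within it and the second lies downstream of it.

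The start of LINC00622 is shown because it is poorer in G and C than the RefSeq starts of the listed coding members. The RefSeq window on GRCh38.p14 (chr1:119599242-119599541, minus strand) holds 250 bases before the start and 50 after it, and its capitals mark the only match to the motifs searched.
LINC00622 start: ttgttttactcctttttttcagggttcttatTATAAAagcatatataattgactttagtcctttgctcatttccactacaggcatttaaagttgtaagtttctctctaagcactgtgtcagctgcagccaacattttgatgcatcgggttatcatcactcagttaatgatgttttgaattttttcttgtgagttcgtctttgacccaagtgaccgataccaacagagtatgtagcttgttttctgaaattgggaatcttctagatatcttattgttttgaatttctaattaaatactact
It is 33.3% G or C and holds 3 CG pairs, against a median of 58.7% and 14 over 35116 windows of the same length. The windows of ZNF697, NOTCH2, WARS2 and PHGDH were 68.7%, 70.3%, 58.0% and 52.7% G or C and held 22, 33, 17 and 15 CG pairs. The PHGDH window (chr1:119711684-119711983) is at the RefSeq start, which is not the GENCODE start of that gene, base 119648411. Searched on both strands, TATAAA occurs in the windows of LINC00622 and PHGDH and in 11.5% of all windows. In both genes it lies near the upstream end of the window, far from the start, and its use was not tested. CACGTG and CATGTG, forms of the E-box, occur in 7.26% and 11.1% of all windows, and TGACTCA, the AP-1 site, in 4.95%. None of these 3 was found in the windows of the 5 listed members.

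LINC00622 was the least abundant of the listed members, and its level was lower in the siLINC00622 library of each line. Its counts were 309 in SK-MEL-28 siNC, 135 in SK-MEL-28 siLINC00622, 135 in A375 siNC and 86 in A375 siLINC00622. Per length, these were 5.94, 2.52, 2.75 and 1.51 FPKM. The siNC library of SK-MEL-28 stood highest and the siLINC00622 library of A375 lowest. The 2 libraries between them had overlapping 95% counting intervals, 2.11 to 2.98 FPKM in SK-MEL-28 siLINC00622 and 2.31 to 3.25 FPKM in A375 siNC. Those levels could not be told apart at this depth. After scaling by TMM within each line, SK-MEL-28 cells had a siLINC00622 over siNC log2 ratio of -1.21 (95% Clopper-Pearson interval -1.53 to -0.93), which leaves 43.1% of the control level. A375 cells had one of -0.84 (-1.27 to -0.46), which leaves 55.7%. These intervals cover counting error only, since there was 1 library per condition, and the sources used here mention no molecular identifiers. The ratio in SK-MEL-28 was lower than that in A375 by an amount within counting error (difference -0.37, interval -0.86 to 0.12).

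LINC00622 was past 1.5-fold in both lines, where 6.49% of 15442 genes were lower by that much (SK-MEL-28) and 4.34% of 16021 (A375). Another 4.56% and 4.52% were higher by that much. By its ratio, LINC00622 was number 143 from the lowest (SK-MEL-28) and number 236 (A375). In the fit over both lines with the cell line as a block (edgeR quasi-likelihood), its log2 change was -1.05 (SE 0.20) with an adjusted p of 0.103, so it was not past the test. Of 16742 genes tested, 0.239% were called lower and 0.197% higher. The fit has 1 residual degree of freedom before the spread is shared over genes. RRAGD, which encodes the small GTPase RagD of the mTORC1 pathway and is the target the study follows, was lower past this test (log2 change -1.82, adjusted p = 0.0409). That call was lost on library totals and with a filter of at least 50 counts (adjusted p = 0.0729 and 0.0886, in a range over all fits from 1.95e-09 with DESeq2 to 1.00 without the block).

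**Figure D1:**
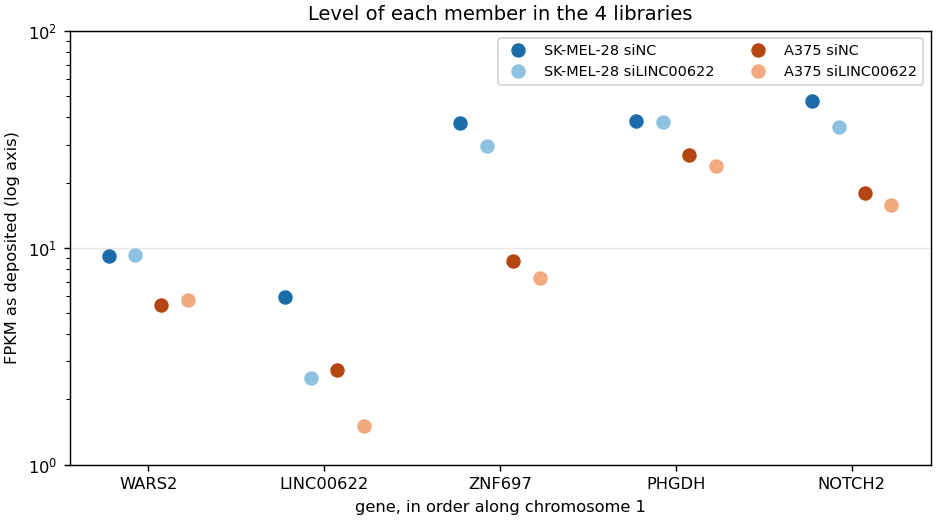
Deposited FPKM (log axis) of the 5 listed members in the 4 libraries, with genes in their order along chromosome 1 and 1 point per library. LINC00622 spans 1.51 to 5.94 FPKM, and for ZNF697, PHGDH, NOTCH2 and WARS2 both SK-MEL-28 libraries lie above both A375 libraries.

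The 2 neighbours on the minus strand beyond the 5′ end of LINC00622, ZNF697 and NOTCH2, were somewhat lower in the siLINC00622 library of both lines, and PHGDH and WARS2 differed less or went in the other direction. None of the 4 was past 1.5-fold in either line, and none was past the test over both lines. Of the 5 listed members, LINC00622 included, 3 had an unadjusted p under 0.05 in the edgeR fit, all lower with siLINC00622. Of all genes tested, 14.5% had such a p, and 7.01% had one and were lower. DESeq2 called none of the 4 neighbours and gave no adjusted p for LINC00622. Counts of ZNF697 (ENSG00000143067, chr1:119619422-119647773, 20.2 kb from LINC00622) were 6976 and 5658 in the siNC and siLINC00622 libraries of SK-MEL-28, and for A375 they were 1522 and 1481. The last library was the deepest, and per length the 4 levels were 37.8, 29.7, 8.72 and 7.30 FPKM. The level with siLINC00622 was the lower one in each line, and the lines did not overlap. As log2 ratios these were -0.33 (-0.38 to -0.28) for SK-MEL-28 and -0.25 (-0.35 to -0.14) for A375. The edgeR fit over both lines gave -0.28 (SE 0.09, unadjusted p = 0.0167, adjusted p = 0.226).

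NOTCH2 (ENSG00000134250, chr1:119911553-120069626) lies 312.3 kb away and is the most heavily counted member, with 31335, 24627, 11236 and 11475 counts in the same order. Its levels were 47.5, 36.2, 18.03 and 15.82 FPKM, lower with siLINC00622 in each line. SK-MEL-28 cells had a log2 ratio of -0.38 (-0.40 to -0.35), and A375 cells one of -0.18 (-0.22 to -0.14). The 2 ratios differed by more than counting error (difference -0.20, interval -0.24 to -0.16), and whether they differ beyond the spread between cultures could not be tested with 1 library per condition. Over both lines the log2 change was -0.27 (SE 0.09) with an edgeR adjusted p of 0.230. Of the 75-base windows of its longest transcript, 2.87% also occur in other genes, NOTCH2NLA among them. No NOTCH2NL gene was listed, so counts could not be summed over the copies.

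PHGDH (ENSG00000092621, chr1:119648411-119744226) is on the plus strand and its first annotated exon faces that of ZNF697. Its counts were 11700, 11941, 7716 and 7957, and its levels 38.5, 38.0, 26.9 and 23.8 FPKM. The SK-MEL-28 libraries were alike and the A375 libraries differed slightly. As log2 ratios these came to 0.00 (-0.04 to 0.04) for SK-MEL-28 and -0.17 (-0.21 to -0.12) for A375. The edgeR fit gave a change of -0.07 (95% interval -0.27 to 0.13, adjusted p = 0.749).

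WARS2 (ENSG00000116874, chr1:119031216-119140671) lies 457.0 kb away on the other side. Its counts were 1164, 1209, 654 and 806, and its levels 9.18, 9.24, 5.46 and 5.78 FPKM, a little higher with siLINC00622 in each line. SK-MEL-28 cells had a log2 ratio of 0.02 (-0.09 to 0.14) and A375 cells one of 0.09 (-0.06 to 0.24), and both intervals include 0. Over both lines it was 0.07 (95% interval -0.18 to 0.31, edgeR adjusted p = 0.817).

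In all, 3 of the 5 listed members, LINC00622, ZNF697 and NOTCH2, had an interval below 0 in both lines, beside 11.9% of 14721 genes with enough counts in both. That rule reads counting error alone, and in deeply counted genes it is passed by small ratios. Set against its neighbours within a library, LINC00622 was lower with siLINC00622 each time. There were 4.43 LINC00622 counts per 100 of ZNF697 among SK-MEL-28 siNC reads and 2.39 with siLINC00622, and 8.87 and 5.81 for A375. The intervals were 3.94 to 4.96 and 1.996 to 2.83 for the first line, 7.38 to 10.6 and 4.62 to 7.22 for the second, and within each line they did not overlap.

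The gene that came closest to LINC00622 was not one of the 5 coding neighbours but HSD3BP5 (ENSG00000198857), a transcribed pseudogene of the 3-beta-hydroxysteroid dehydrogenase family. It was singled out after its values were seen, as 1 of the genes within 1 Mb that the rule for named genes takes. It lies at chr1:119601340-119609250 on the plus strand, starting 2.1 kb from the start of LINC00622, so that both genes are read away from each other. Its counts were 383, 156, 176 and 107, or 10.2, 4.03, 4.97 and 2.60 FPKM, in the order SK-MEL-28 siNC, SK-MEL-28 siLINC00622, A375 siNC and A375 siLINC00622. The level was lower with siLINC00622 in both lines. SK-MEL-28 cells had a log2 ratio of -1.32 (-1.61 to -1.05), and A375 cells one of -0.91 (-1.29 to -0.57). Over both lines it was -1.13 (SE 0.19, unadjusted p = 0.000631, edgeR adjusted p = 0.0803), so like LINC00622 it was not past the test.

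HSD3BP5 had 1.24, 1.16, 1.30 and 1.24 counts for each count of LINC00622 in the 4 libraries. The intervals of these ratios overlapped, the widest being 0.93 to 1.67 in A375 siLINC00622. The ratio therefore stayed within counting error while the level of each gene spanned about 4-fold over the libraries. Neither siRNA target nor seed match was found in the annotated HSD3BP5 transcript, and the longest stretch it has in common with LINC00622, on either strand, is 10 bases. Whether strand was marked in the libraries or used in counting is not given in the sources used here. Whether both genes are read from 1 longer RNA was not tested.

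**Figure D2:**
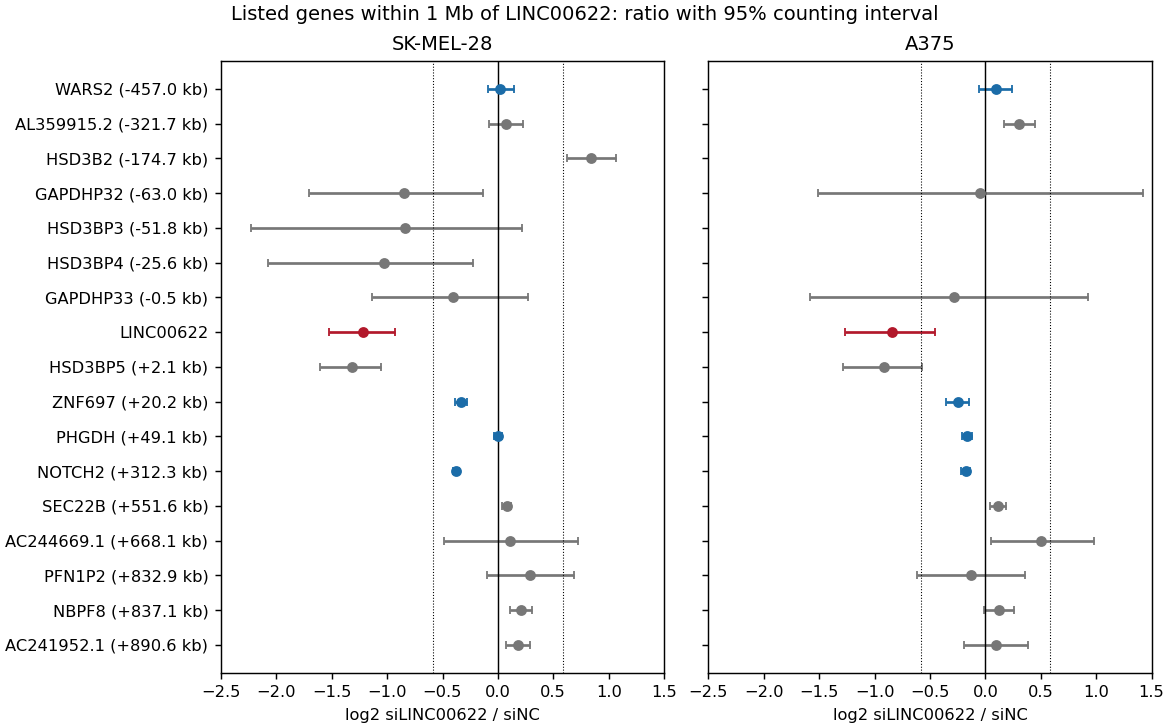
Log2 ratio of siLINC00622 over siNC with its 95% counting interval for the listed genes within 1 Mb of LINC00622, ordered by position, with distance in kb in brackets (LINC00622 red, other members blue, other genes grey). Genes that reached 10 counts in either library of the line are drawn, and dotted lines mark 1.5-fold. LINC00622 and HSD3BP5 lie to the left of the 1.5-fold line in both panels, at -1.21 and -1.32 on the left and at -0.84 and -0.91 on the right.

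Other than LINC00622, 16 genes within 1 Mb passed the filter in SK-MEL-28, among them ZNF697, PHGDH, NOTCH2 and WARS2. Of these 16, 4 were lower past 1.5-fold and 1 was higher, beside 6.49% and 4.56% of all genes. The median log2 ratio of the 16 was 0.01 beside 0.00 for all genes. In A375, 1 of 13 was lower and 0 were higher, beside 4.34% and 4.52% of all genes. The median there was -0.05 beside 0.00. The edgeR fit over both lines called 0 of the 16, beside 0.239% of all genes lower and 0.197% higher. In that fit 4, HSD3BP5, HSD3BP4, ZNF697 and NOTCH2, had an unadjusted p under 0.05, all lower, beside the 7.01% of all genes given above. In a window of 0.5 Mb, 4 were again lower past 1.5-fold and 1 higher in SK-MEL-28, while the median was -0.38, with 8 of 11 below 0, and -0.17 in A375, with 6 of 8 below 0. Over all genes, 7800 of 15442 and 7904 of 16021 were below 0. With at least 50 counts the medians within 1 Mb were 0.07 and 0.09. The lower ones in SK-MEL-28 were HSD3BP5 and 3 pseudogenes of few counts. HSD3BP4, 25.6 kb from LINC00622, went from 34 to 16 counts (log2 ratio -1.03, interval -2.07 to -0.22). GAPDHP32 went from 42 to 23 (-0.84, interval -1.70 to -0.13) and HSD3BP3 from 19 to 10 (-0.83, interval -2.22 to 0.22). Of the 4, HSD3BP5 was the 1 that reached 50 counts. GAPDHP33, 0.5 kb downstream of the 3′ end of LINC00622, had 42, 32, 13 and 12 counts in the order above, and its log2 ratios of -0.40 (interval -1.13 to 0.27) and -0.28 (interval -1.59 to 0.92) could not be told from 0.

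HSD3B2, an enzyme of steroid synthesis in adrenal and gonad, was the gene that was higher. SK-MEL-28 cells had 259 and 475 counts of it, with a log2 ratio of 0.84 (0.62 to 1.07), and A375 cells 2 and 0, too few for a ratio. Farther out, SEC22B, a SNARE protein of transport between endoplasmic reticulum and Golgi, had log2 ratios of 0.08 for SK-MEL-28 and 0.12 for A375, in which order the other genes had the following: the antisense RNA AL359915.2 0.07 and 0.31, and NBPF8 0.21 and 0.12. AC241952.1 had 0.18 and 0.10, AC244669.1 0.11 and 0.50, and PFN1P2 0.29 and -0.13. RF00004 was listed with 6 counts at most and was left out. Part of these genes have near copies elsewhere: 69.4% of the windows of AC241952.1, 61.3% of NBPF8, 43.2% of AC244669.1 and 16.0% of PFN1P2 occur in other genes, and their counts are uncertain. LINC00622, ZNF697 and PHGDH had 0 such windows, and HSD3BP5 2.36%. AL359915.2 overlaps WARS2 on the other strand, and 0.731% of the WARS2 windows are in that overlap.

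Seed matches to the siRNAs were found in ZNF697 and NOTCH2 and not in PHGDH, WARS2 or TBX15. The longest coding transcript of ZNF697 holds 1 match to the first siRNA (GTGAGAA) in its 3′ UTR. That of NOTCH2 holds 6 in its coding sequence, and 1 match to the second siRNA (ATTGACT) in its 3′ UTR. The 3′ UTR of PHGDH is 150 bases long in that transcript, against 3283 in ZNF697, 3753 in NOTCH2 and 2144 in WARS2. Of 19059 coding genes, 12.8% hold the first match and 9.98% the second in the 3′ UTR of their longest transcript. Such shares were not taken for coding sequences. Genes with the first match had a median log2 ratio of -0.09 (SK-MEL-28) and -0.03 (A375), beside 0.00 and 0.02 without it, and longer 3′ UTRs (median 3223 bases beside 1134 among genes measured in SK-MEL-28). For the second match the medians were -0.07 and -0.01, beside 0.00 and 0.01 without it. Among SK-MEL-28 values, 11.6% of genes with the first match were lower past 1.5-fold, beside 4.86% of those without it, and among A375 values 3.63% beside 1.92%. For the second match these shares were 9.57% beside 5.34% and 1.93% beside 2.19%. RRAGD holds 1 match to the first siRNA in the 3′ UTR of its longest coding transcript and 1 in the coding sequence. To the second siRNA it holds 3, all in the coding sequence. The part of seed pairing in the values of ZNF697, NOTCH2 and RRAGD was not tested.

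All 5 listed members were higher in SK-MEL-28 than in A375 past the test, in the edgeR fit with treatment as a block. Of all genes tested, 33.4% were called higher in SK-MEL-28 and 34.3% higher in A375. ZNF697 differed most, by 2.24 on the log2 scale (SE 0.09, 4.73-fold, adjusted p = 2.19e-06). NOTCH2 differed by 1.47 (SE 0.09, 2.76-fold, adjusted p = 1.11e-05) and LINC00622 by 1.11 (SE 0.20, 2.16-fold, adjusted p = 0.00214). WARS2 differed by 0.88 (SE 0.10, 1.85-fold, adjusted p = 0.000267) and PHGDH by 0.77 (SE 0.08, 1.70-fold, adjusted p = 0.000191). The interval of ZNF697 (2.02 to 2.46) lay above that of NOTCH2 (1.26 to 1.68), while those of NOTCH2, LINC00622 (0.64 to 1.59), WARS2 (0.64 to 1.13) and PHGDH (0.57 to 0.97) overlapped from one to the next. The 2 libraries of a line stand in for replicates here, though they differ in siRNA. The residual of this fit is how far the siRNA change differs between the lines, with the spread shared over genes. The p-values therefore do not measure a spread between cultures treated alike.

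The differences held in each treatment taken alone. Between the siNC libraries they were 1.28 for LINC00622, 2.29 for ZNF697, 0.70 for PHGDH, 1.58 for NOTCH2 and 0.93 for WARS2 on the log2 scale. Between the siLINC00622 libraries they were 0.89, 2.19, 0.84, 1.36 and 0.84. The order of levels between genes depends on gene length. In deposited FPKM, SK-MEL-28 siNC had NOTCH2 first (47.5), then PHGDH (38.5) and ZNF697 (37.8), whose counting intervals overlapped, then WARS2 and LINC00622, and in the other 3 libraries PHGDH came first, then NOTCH2 and ZNF697. The authors' gene lengths take in the exons of every annotated transcript, 9187 bases for PHGDH and 19930 for NOTCH2. Per kb of the longest coding transcript, an alternative chosen after the data were seen, PHGDH led in all 4 libraries, with 137 CPM per kb in SK-MEL-28 siNC against 83.1 for NOTCH2.

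A higher level in SK-MEL-28 was also seen in other genes near the members. Of 16 genes other than LINC00622 tested within 1 Mb, 14 were called higher in SK-MEL-28 and 0 higher in A375. The median difference of the 16 was 1.59 on the log2 scale. These 16 include the members ZNF697, PHGDH, NOTCH2 and WARS2, which are all among the 14. AL359915.2 (-0.16, adjusted p = 0.279) and AC244669.1 (-0.62, adjusted p = 0.0503) were the 2 not called. Between 1 and 3 Mb away it was 13 of 21 and 0, with a median of 0.73. Toward lower positions this was 10 of 10, with a median of 0.84, and toward higher positions 3 of 11, with a median of 0.47. Between 3 and 10 Mb, all toward lower positions, it was 43 of 69 and 8, with a median of 0.51. Between 10 and 30 Mb toward lower positions it was 39 of 97 and 28, with a median of 0.17. Toward higher positions, which at that distance is the long arm, it was 10 of 58 and 25, with a median of -0.45. Over chromosome 1 as a whole, 31.9% of 1695 genes were called higher in SK-MEL-28 and 37.5% higher in A375. The number of copies of the region in each line was not measured here.

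**Figure D3:**
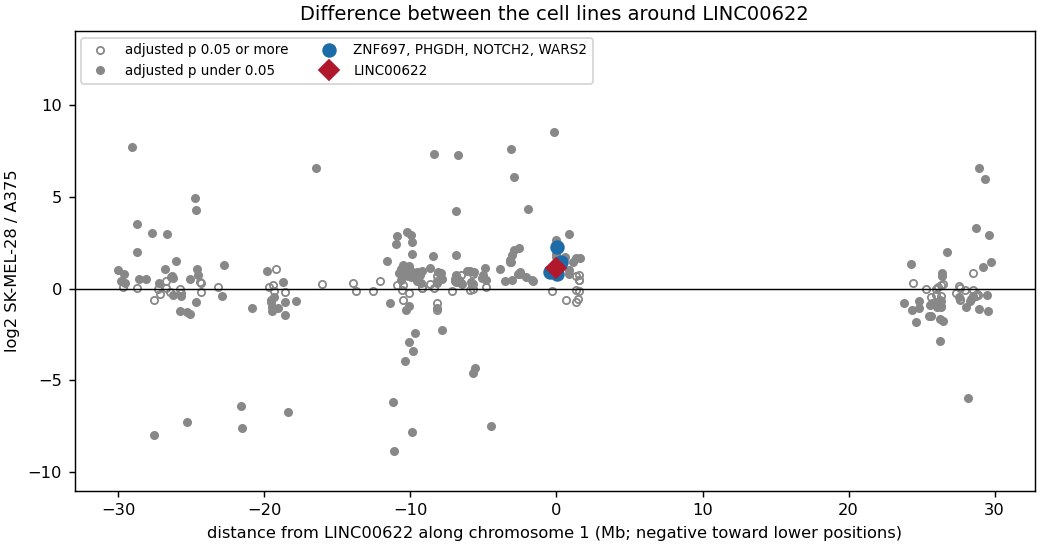
Log2 difference between SK-MEL-28 and A375 (edgeR, treatment as a block) for the tested genes within 30 Mb of LINC00622, against distance in Mb, with 1 point per gene, filled where the adjusted p was under 0.05. The members (blue, and red for LINC00622) lie between 0.77 and 2.24, and no gene within 3 Mb was called higher in A375.

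By pattern over the 4 libraries, HSD3BP5 was nearest to LINC00622 among the 14295 other genes that reached 50 counts somewhere. Likeness was taken as the Euclidean distance between log2 CPM values centred on each gene's mean, so that it reads the difference between lines and that between treatments together. The distance was 0.12 for HSD3BP5, 0.24 for NEURL1B, an E3 ligase, 0.25 for DSG2, a desmosomal cadherin, 0.25 for ERG28, which takes part in sterol synthesis, and 0.25 for LRRC8B, a subunit of volume-regulated anion channels. The members ranked behind: NOTCH2 257, PHGDH 892, WARS2 1523 and ZNF697 4299. With 4 libraries this is a description, and many genes can lie close by it.

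**Figure D4:**
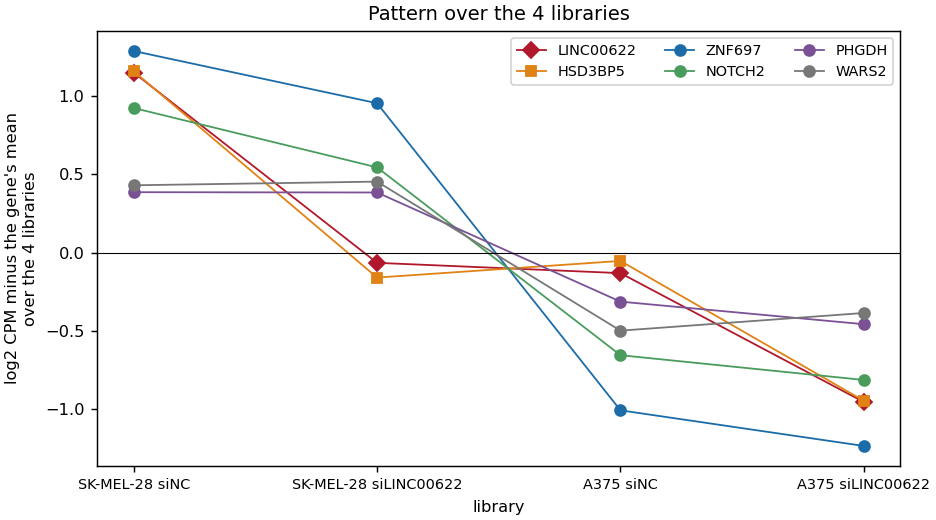
Log2 CPM of 6 genes minus each gene's own mean over the 4 libraries, 1 point per library, where lines only link the points of a gene. LINC00622 and HSD3BP5 lie almost on each other, at 1.15 and 1.16 in SK-MEL-28 siNC and at -0.95 and -0.95 in A375 siLINC00622, while ZNF697 spans 1.29 to -1.23.

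The pathways in which the neighbours act showed no gene past the edgeR test over both lines. Of all genes tested, that test called 0.239% lower and 0.197% higher, so 0 calls in lists of this size do not set them apart. At an unadjusted p under 0.05 there were 4 of 15 genes of the serine list, 2 of 22 of the Notch list, 2 of 16 tRNA synthetases and 1 of 7 T-box genes, beside 14.5% of all genes. DESeq2 called 2 genes over these lists, SHMT2 among them, beside 305 of all 16742 genes tested. In the serine and one-carbon list, which includes PHGDH, 15 of 15 genes were measured, 0 were past 1.5-fold in either line, and the median log2 ratio was -0.13 and -0.10. SHMT2, which splits serine in mitochondria, was the lowest over both lines (log2 ratio -0.47 and -0.48, edgeR adjusted p = 0.0934). PSPH, the last enzyme of serine synthesis, had -0.03 and 0.08. PSAT1, the step after PHGDH, differed in sign, with 0.15 (0.10 to 0.20) for SK-MEL-28 and -0.24 (-0.28 to -0.20) for A375. Between the lines, 6 of the 15 were higher in SK-MEL-28 and 6 in A375, beside 33.4% and 34.3% of all genes tested. PHGDH and PSPH were among those higher in SK-MEL-28 (PSPH 0.48, adjusted p = 0.00434), and PSAT1 was higher in A375 (-0.44, adjusted p = 0.00888).

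Of 28 genes of the Notch pathway, which include NOTCH2, 22 were listed and 0 of 22 passed the test over both lines. In SK-MEL-28, 1 was lower past 1.5-fold, beside 6.49% of all genes. It was MAML3, a coactivator (log2 ratio -0.68), which was named after its value was seen and had 0.20 in A375. The medians were -0.09 and -0.05. Among ligands, JAG1 had log2 ratios of 0.01 and 0.27. RBPJ, the DNA-binding partner of the receptor's intracellular part, had 0.04 and 0.25. Of the target genes, HES1 had -0.40 (-0.53 to -0.28) for SK-MEL-28 and -0.11 (-0.37 to 0.15) for A375, and HEY1 -0.15 and -0.03, with adjusted p = 0.420 and 0.775 over both lines. Between the lines 10 of the 22 were higher in SK-MEL-28 and 7 in A375, beside 33.4% and 34.3% of all genes tested. HES1 and HEY1 were higher in SK-MEL-28, as NOTCH2 was, by 2.32 (adjusted p = 9.38e-06) and 3.11 (adjusted p = 1.92e-06) on the log2 scale, while RBPJ and JAG1 were lower there (RBPJ adjusted p = 0.000106, JAG1 -0.55, adjusted p = 0.00924).

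Of 17 mitochondrial aminoacyl-tRNA synthetases, WARS2 included, 16 were listed and 0 passed the edgeR test, with medians of 0.03 and 0.00. Lower past 1.5-fold were 1 in SK-MEL-28 and 0 in A375, beside 6.49% and 4.34% of all genes. Of 17 T-box genes, 7 were listed and 0 passed the test. TBX19 was higher past 1.5-fold in both lines, by 0.59 (interval 0.25 to 0.95) and 0.87 (interval 0.44 to 1.36), with an adjusted p of 0.175. In A375 alone, TBX2 was higher past 1.5-fold (0.63, interval 0.50 to 0.76) and TBX20 lower (-0.75, interval -1.15 to -0.37), both named after their values were seen. Of all genes, 4.52% were higher and 4.34% lower past 1.5-fold in A375, and 4.56% were higher in SK-MEL-28. With FPKM and a pseudocount of 1, 0 T-box genes were past 1.5-fold in either line.

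As to the cells, all 7 pigment-cell genes looked up were listed, and SOX10 was high in every library (118 to 153 FPKM). The summed level of the 7 was 2060 and 2209 FPKM for SK-MEL-28 against 133 and 166 for A375, where PMEL, MLANA, TYR and DCT were at 0.21 to 2.35 FPKM. The blood and endothelial markers had 0 of 6 listed. LUM was the 1 fibroblast marker of 4 that was listed (2.24 to 9.78 FPKM), and KRT10 and KRT14 the 2 of 4 of keratinocytes, with KRT10 at up to 26.3 FPKM and KRT14 at 7.01 FPKM at most.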

How the data were processed

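Libraries (4, 1 per condition) were grouped by the line, SK-MEL-28 or A375, and the siRNA that their labels give. Per the study's methods, poly(A) libraries were read as paired ends, and a strand setting is not given in the sources used here. The submitters' processing notes name HISAT2, HISAT, TopHat2, Bowtie2 and hg19, with no versions, and the counter is not given in the sources used here. The authors deposited 1 table without coordinates: counts are whole reads per gene, deposited CPM is the count scaled to library size, and deposited FPKM is CPM divided by the authors' gene length in kb. Another 4 columns, of TPM, were not used. Of 17755 rows, 17535 have Ensembl identifiers, 17332 of which matched GENCODE 29, and 220 are MSTRG identifiers. The lowest mean FPKM of a row is 0.25, so an unlisted gene may be low or filtered. The rows hold between 99.7% and 99.8% of each library's total.

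Positions are those of GENCODE 29 on GRCh38, not of the authors' build. Log2 ratios within a line used TMM (edgeR 4.0.16, R 4.3.3), a prior count of 2 and genes that reached 10 counts in either treatment. Intervals are 95% Clopper-Pearson intervals for ratios and exact Poisson intervals for levels, and cover counting error only. The paired fit used edgeR's quasi-likelihood test with cell line and treatment as terms on genes with at least 10 counts in 1 library, with Benjamini-Hochberg adjustment over all of them and a threshold of 0.05. The pairing comes from the cell line. DESeq2 1.42.0, other scalings, filters, prior counts and FPKM pseudocounts were alternatives. The fit was tested on simulated data. Sequences came from GENCODE 29 transcripts, RefSeq windows and the study's oligonucleotide list, and shared stretches were counted as 75-base windows on either strand.

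The members and gene lists were chosen with earlier results of these data known. Named genes were the 6 members, the listed genes within 1 Mb, the 5 genes nearest in pattern to LINC00622, RRAGD, PSAT1, PSPH, SHMT2, JAG1, RBPJ, HES1 and HEY1, and list genes past 1.5-fold in both lines or past the paired test. MAML3, TBX2 and TBX20 were named beyond that rule, and 1 gene's result is not reported here. NOTCH2NL genes were to be named but are not listed.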

Additional observations from a re-analysis of the deposited data

Results flagged for a closer look

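PSAT1 was singled out because its log2 ratio of siLINC00622 over siNC was above 0 in SK-MEL-28 (0.15) and below 0 in A375 (-0.24), with counting intervals that exclude 0 in both. SK-MEL-28 cells had 6596 and 7478 counts of it under siNC and siLINC00622, and A375 cells 10910 and 10675. There was 1 library per condition, and the difference between the lines was not tested.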

How the results depend on the processing

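Among the 289 alternative values, a reversal of direction was defined only for ratios past 1.5-fold and for log2 changes in the fits. None of those reversed. Some values near 0 did change sign. In SK-MEL-28 the median ratio of genes within 1 Mb went from 0.01 to -0.38 in a window of 0.5 Mb. In A375 it went from -0.05 to 0.09 with at least 50 counts. The ratios of the members in each line stayed within their counting intervals, and LINC00622 ranged from -1.23 to -0.98 in SK-MEL-28 and from -0.86 to -0.58 in A375. The end of the A375 range, -0.58 with FPKM and a pseudocount of 1, is under 1.5-fold, so 0 members were past it there, and a pseudocount pulls low genes toward 0 by construction. The count of genes past the paired test depended on the fit: 73 in the fit as reported, 305 with DESeq2, 121 without a filter, 1 on library totals, 1 with at least 50 counts and 0 with no replicate block. The block is the cell line itself, and 27 genes had an unadjusted p under 0.05 without it, against 2420 with it. No member passed the paired test in any of these fits. The adjusted p of LINC00622 ranged from 0.0711 to 1.00 and that of HSD3BP5 from 0.0529 to 1.00, and DESeq2 gave NA for both. Leaving out either cell line leaves the ratio of the other as a value with no test, from -1.21 to -0.84 for LINC00622. All 5 members were called between the lines in each of 5 fits, although library totals moved the median of all genes from 0.04 to 0.21 (A375 over SK-MEL-28). Near LINC00622, the 4 genes lower in SK-MEL-28 became 7 at the lower fold limit that was tried and 1 with at least 50 counts. Higher there were 4 in a window of 3 Mb. In A375, 2 were lower and 4 higher in a window of 3 Mb, and 1 was higher at the lower fold limit. The causes of these moves were not tested beyond what each setting's construction fixes. NOTCH2 could not be summed with NOTCH2NL genes, which are not listed. Depth limits LINC00622 to 86 to 309 counts.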
